A study of Mus musculus with 89 samples.

Results

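The 10 genes described here build, load and supply the molecules of major histocompatibility complex (MHC) class I, and were followed along the crypt-villus axis of the mouse jejunum and across its epithelial cell types. They were taken by name: B2m, H2-K1, H2-D1, H2-T3, H2-Q1, H2-Q2, Tap1, Tapbp, Psmb8 and Psmb9, 10 of the 29100 gene names in either of the deposited tables, and each of them is in both. Jejunum came from C57BL/6 male mice on regular chow, labelled as 3 months old except for 3 plates of single-cell mouse 2, labelled as 4 months old. No treatment, transgene or mutation is named for any of them. In ClumpSeq the tissue is dissociated only in part with EDTA, and small clumps of cells that touched each other are sorted by DNA content and sequenced from the 3′ end. Clumps came from mice 1 to 5, sorted as pairs of cells (labelled 4n) or, in mice 1, 4 and 5 alone, also as larger clumps (h4n). Clumps of mouse 6 (h2n) were kept apart. Single cells came from 4 mice with their own numbering, of which mouse 2, with its 2 labelled ages, need not be 1 animal, sorted as positive for Epcam and negative for CD45, or on part of the plates gated on CD24.

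MHC class I molecules are heavy chains paired with beta-2 microglobulin that show peptides from inside the cell to CD8 T cells, and in the gut epithelium also to intraepithelial lymphocytes. The proteasome cuts the peptides, and after interferon signals its catalytic subunits can be exchanged for immunoproteasome subunits. The TAP transporter carries the peptides into the endoplasmic reticulum, where tapasin and its partners help to fit them to the heavy chain. H2-K1 and H2-D1 encode classical heavy chains, H2-Q1 and H2-Q2 heavy chains of the Qa region, and H2-T3 the thymus leukaemia antigen, which binds CD8 alpha homodimers and is known from intestinal epithelium.

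B2m lies on chromosome 2 (GRCm38, chr2:122147687-122153082), and the other members share a stretch of chromosome 17 that runs from Tapbp (chr17:33919478-33929290) to H2-T3 (chr17:36185571-36190151). H2-K1 (chr17:33996012-34000619), Psmb9 (chr17:34182030-34187330), Tap1 (chr17:34187556-34197225) and Psmb8 (chr17:34198195-34201454) lie near Tapbp, whereas H2-D1 (chr17:35263094-35267497), H2-Q1 (chr17:35320525-35328142) and H2-Q2 (chr17:35342307-35346764) lie nearer to H2-T3. The H2 genes have near-identical copies, so that the assignment of reads among them is uncertain. Psmb9 and Tap1 point away from each other across 225 bases. The bases upstream of B2m, H2-D1, H2-T3 and H2-Q2, and the stretch between Psmb9 and Tap1, are shown because B2m and these heavy chains rose in mid villus clumps while Psmb9 fell at the villus tip. They are from RefSeq (GRCm38.p6), 5′ to 3′ on the strand of the gene, or on the plus strand for the shared stretch. Capitals mark AANNGAAA, the core bound by interferon regulatory factors, on either strand.
B2m, chr2:122147437-122147686, plus strand: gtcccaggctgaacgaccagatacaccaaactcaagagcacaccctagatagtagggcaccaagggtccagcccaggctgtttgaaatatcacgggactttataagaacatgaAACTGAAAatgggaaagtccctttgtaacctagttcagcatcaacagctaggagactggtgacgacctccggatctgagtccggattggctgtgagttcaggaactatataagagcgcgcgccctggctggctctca
H2-D1, chr17:35262844-35263093, plus strand: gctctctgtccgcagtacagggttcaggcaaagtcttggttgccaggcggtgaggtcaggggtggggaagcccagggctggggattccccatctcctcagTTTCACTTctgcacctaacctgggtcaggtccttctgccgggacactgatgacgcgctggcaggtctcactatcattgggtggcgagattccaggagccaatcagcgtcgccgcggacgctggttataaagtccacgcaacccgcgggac
H2-T3, chr17:36190152-36190401, minus strand: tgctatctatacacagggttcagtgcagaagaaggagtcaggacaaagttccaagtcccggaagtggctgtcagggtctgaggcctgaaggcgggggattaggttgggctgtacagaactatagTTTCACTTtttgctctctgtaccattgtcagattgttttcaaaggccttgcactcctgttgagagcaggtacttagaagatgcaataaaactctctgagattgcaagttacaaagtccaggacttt
H2-Q2, chr17:35342057-35342306, plus strand: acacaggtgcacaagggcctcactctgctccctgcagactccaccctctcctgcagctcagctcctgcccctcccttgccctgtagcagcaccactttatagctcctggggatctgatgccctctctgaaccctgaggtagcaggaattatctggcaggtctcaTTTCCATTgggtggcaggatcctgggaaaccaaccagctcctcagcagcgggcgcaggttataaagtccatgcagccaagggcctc
Psmb9 to Tap1, chr17:34187331-34187555, plus strand: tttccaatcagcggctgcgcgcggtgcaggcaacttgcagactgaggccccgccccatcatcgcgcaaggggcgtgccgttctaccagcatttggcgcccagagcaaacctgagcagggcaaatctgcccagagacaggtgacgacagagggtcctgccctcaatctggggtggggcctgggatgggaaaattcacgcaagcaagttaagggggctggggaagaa
Upstream windows of 250 bases were matched for 9 of the 10 members, all but H2-Q1. AANNGAAA was found in those of B2m, H2-K1, H2-D1, H2-T3 and H2-Q2 and in none of those of Tap1, Tapbp, Psmb8 and Psmb9, and 21.3% of 32817 RefSeq windows of that length hold it on one strand or the other. TTCNNNGAA, a motif of STAT dimers, was found among the members upstream of Psmb8 only, against 7.01% of all windows. The motifs were chosen with the sequences in view, and a match describes letters, not a bound site.

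Of 15626 clump wells of mice 1 to 5, 6004 passed the limits on genes, mitochondrial share and UMIs (unique molecular identifiers, 1 for each captured RNA molecule). Of these, 5883 could be assigned to crypt, mid villus or villus tip by 70 enterocyte landmark genes of the study, none of them a member, which gave 3529 crypt, 1550 mid villus and 804 tip clumps. UMIs were summed per mouse and zone into 15 sums of 79055 to 19001409 UMIs, and levels are given as CPM, the UMIs of a gene per 1000000 UMIs of a sum. Larger clumps made up 2233 of the crypt, 314 of the mid villus and 98 of the tip clumps. Mitochondrial genes took 4.70% to 21.4% of the UMIs of a sum. The enterocyte list, with UMIs of all 14 genes in each zone, summed to 3054 to 13910 CPM in crypt and 53292 to 96475 at the tip, and the list of stem and dividing cells to 523 to 1409 and 58.8 to 347. In such sums, fewer cells of a type and less RNA per cell cannot be told apart.

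Most members were higher in the villus than in the crypt. In mid villus clumps 8 of the 10 members were higher than in crypt clumps and none was lower, against 16.5% higher and 23.6% lower among all 7445 genes tested. In villus tip clumps 6 members were higher and 1, Psmb9, was lower, against 22.6% higher and 30.5% lower. The median log2 fold change of the members was 1.33 for mid villus and 1.49 for the tip, while that of all genes was −0.04 and −0.15. The tests were edgeR quasi-likelihood tests on the sums with TMM scaling and Benjamini-Hochberg adjustment over all genes, and changes are given as log2 fold changes ± SE. With DESeq2's size factors the same members were called, but the median of all genes was −0.30 and −0.46, and the share of higher genes among all calls went from 41.1% to 27.4% for mid villus and from 42.5% to 32.0% for the tip.

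**Figure D1:**
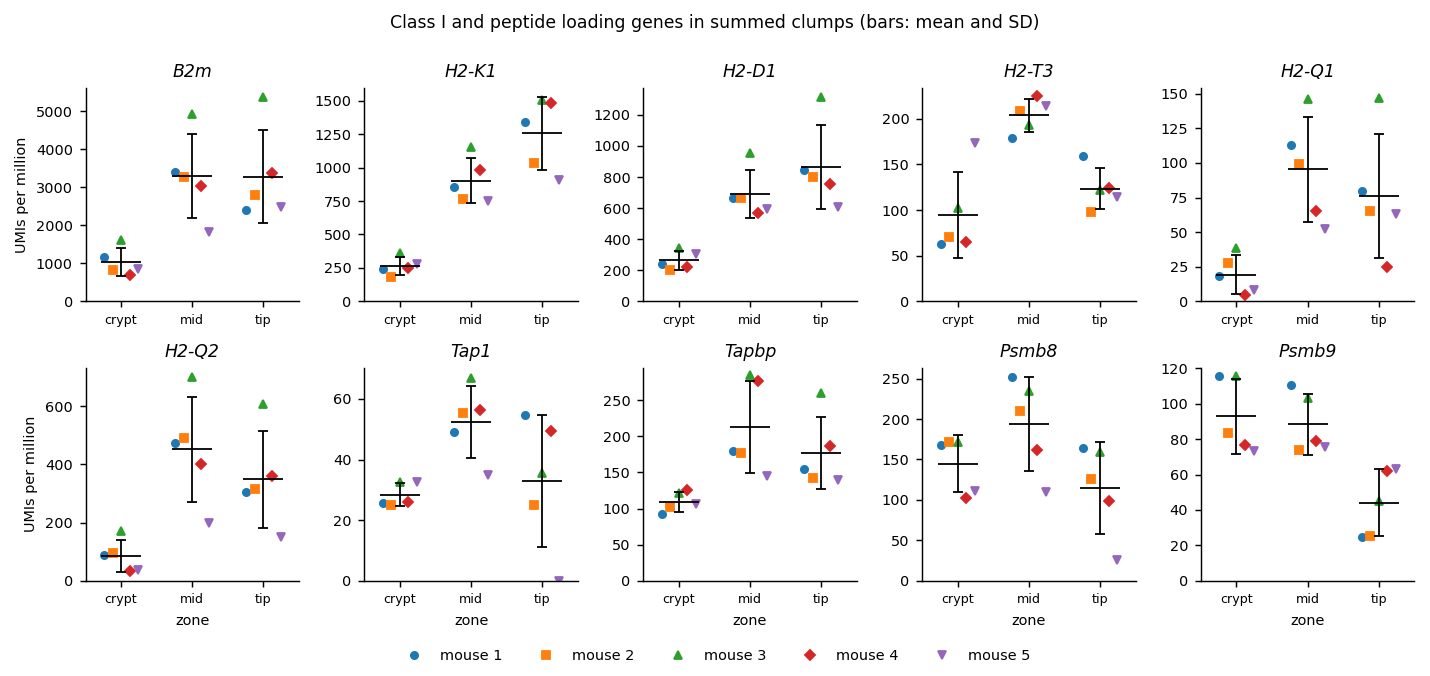
Level of each member in CPM (UMIs per 1000000) (vertical axes from 0, 1 scale per gene) in summed crypt, mid villus and villus tip clumps; each point is 1 of 5 mice, bars are the mean and SD. B2m, H2-K1 and H2-D1 lie higher in mid villus and tip than in crypt in every mouse, while Psmb9 lies lowest at the tip in every mouse.

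B2m, the light chain of class I molecules, was at 1172, 825, 1612, 683 and 859 CPM in crypt clumps of mice 1 to 5. It was at 3393, 3262, 4917, 3028 and 1814.5 in mid villus clumps and at 2397, 2793, 5369, 3359 and 2467 in tip clumps of the same mice. Every villus value lay above every crypt value. B2m rose by 1.75 ± 0.33 from crypt to mid villus (adjusted p = 0.000136 by edgeR) and by 1.97 ± 0.33 from crypt to tip (adjusted p = 2.64e-05), the latter a 3.92-fold change.

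H2-K1, a classical heavy chain, was at 239, 185, 363, 252 and 276 CPM in crypt, at 857, 766, 1151, 985 and 748 in mid villus and at 1346, 1033, 1511, 1487.5 and 911 at the tip. Levels were ordered crypt, mid villus, tip in all 5 mice. H2-K1 rose 5.73-fold from crypt to tip (2.52 ± 0.28, adjusted p = 1.52e-07 by edgeR), with H2-Q1 (2.49) and H2-Q2 (2.39) close to it. H2-D1, the other classical heavy chain, was at 243, 199.8, 345, 222 and 306 CPM in crypt, at 667, 665, 954, 569 and 591 in mid villus and at 842, 799.7, 1317, 756 and 607 at the tip, in the same order in each mouse. Its change from crypt to tip was 2.00 ± 0.30 (adjusted p = 6.93e-06 by edgeR).

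The Qa region heavy chains rose by 2.52 and 2.46 from crypt to mid villus. H2-Q2 was at 89.6, 95.9, 171, 32.0 and 37.9 CPM in crypt, 473, 489.7, 699, 400.5 and 197 in mid villus and 304, 316, 608, 359 and 152 at the tip. Mid villus did not overlap the crypt, and the tip lay below mid villus in every mouse. The mid villus change of H2-Q2 had an SE of 0.39 (adjusted p = 1.4e-05 by edgeR), and the tip was higher than crypt by 2.39 ± 0.39. H2-Q1 was at 4.21 to 38.7 CPM in crypt, 52.2 to 146 in mid villus and 24.8 to 147 at the tip, with adjusted p = 0.000187 for mid villus and 0.000189 for the tip against crypt. The lowest tip value of H2-Q1, which is 2 UMIs in mouse 4, lay within the range of the crypt.

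H2-T3, the thymus leukaemia antigen, had its highest level in mid villus. It was at 62.5, 70.8, 102, 64.5 and 173 CPM in crypt, 179, 209, 193, 225 and 214 in mid villus and 159.5, 97.8, 123, 124 and 114 at the tip. Every mid villus value was above every crypt and tip value, and the crypt value of mouse 5 was above all tip values. Mid villus was higher than crypt by 1.19 ± 0.33 (adjusted p = 0.00527 by edgeR). The tip differed from crypt by 0.64 ± 0.34, which did not pass (adjusted p = 0.120), but passed with the mouse as a block (0.86, adjusted p = 0.000691) and without mouse 5 (1.20, adjusted p = 0.000612).

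The peptide loading members had smaller fold changes than the classical heavy chains. Tapbp encodes tapasin, which bridges the heavy chain to the transporter. It was at 92.5 to 125 CPM in crypt, 145 to 285 in mid villus and 139 to 259.7 at the tip, with no overlap of either villus zone with the crypt. Tapbp rose by 1.04 ± 0.26 to mid villus (adjusted p = 0.00248) and by 1.00 ± 0.27 to the tip (adjusted p = 0.00302, both edgeR). The tip difference no longer passed without mouse 3 (0.71, adjusted p = 0.0555) or with total UMIs as library sizes (0.71, adjusted p = 0.0543).

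Tap1, a subunit of the peptide transporter, was at 25.6, 25.1, 32.8, 26.2 and 32.5 CPM in crypt and at 49.1, 55.2, 67.0, 56.2 and 34.8 in mid villus. The zones did not overlap, and the rise was 1.02 ± 0.30 (adjusted p = 0.00771 by edgeR), which no longer passed without mouse 3 (0.80, adjusted p = 0.114). At the tip Tap1 was at 54.8, 25.1, 35.5 and 49.6 in mice 1 to 4, and mouse 5 had no UMI among 79055, which allows up to 37.9 CPM by counting error alone. Tip and crypt overlapped, and their difference of 0.60 ± 0.34 did not pass (adjusted p = 0.146 by edgeR).

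Psmb8 and Psmb9 are catalytic subunits of the immunoproteasome. Psmb9, which replaces Psmb6 in the immunoproteasome, was at 116, 83.3, 116, 76.7 and 73.2 CPM in crypt, at 111, 73.6, 103, 78.7 and 75.4 in mid villus and at 24.9, 25.1, 45.3, 62.0 and 63.2 at the tip. Crypt and mid villus overlapped, and every tip value was below every value of the other zones. Psmb9 fell by 0.91 on the log2 scale from crypt to tip (SE 0.30, adjusted p = 0.0145) and by 0.94 from mid villus to tip (SE 0.31, adjusted p = 0.0462, both edgeR). The tip values rest on 62 UMIs in all. The fall from crypt no longer passed without mouse 1 (−0.65) or mouse 2 (−0.80), and that from mid villus not without mouse 1 (−0.62), mouse 2 (−0.91) or mouse 3 (−0.91). Larger clumps came from only part of the mice. Among them the difference of Psmb9 from crypt to tip was 0.0389 (adjusted p = 0.971) and that from mid villus to tip −0.20 (adjusted p = 0.930). With every clump thinned to 500 UMIs they were −0.32 (adjusted p = 0.542) and −0.54 (adjusted p = 0.481, all edgeR). From mid villus to tip, Psmb9 also missed the threshold when no gene was filtered out (adjusted p = 0.0733) and after plate background was subtracted (adjusted p = 0.0697).

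Psmb8, which replaces Psmb5, was at 102 to 171 CPM in crypt, 110.1 to 252 in mid villus and 25.3 to 164 at the tip. Its tip value was below its crypt value in all 5 mice, whereas the difference under TMM was 0.07 ± 0.31 and did not pass. Its difference between mid villus and crypt, 0.52 ± 0.30, did not pass either (adjusted p = 0.171 by edgeR), but did with the mouse as a block (adjusted p = 0.0192) and without mouse 5 (adjusted p = 0.0341).

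Between villus tip and mid villus 1 of 10 members, Psmb9, was lower and none was higher, against 6.07% higher and 6.47% lower. By edgeR 1 member was higher and 1 lower at an unadjusted p under 0.05, as by the DESeq2 Wald test at an adjusted p under 0.05. H2-K1 was at a higher level at the tip in 5 of 5 mice by 0.65 ± 0.27 (adjusted p = 0.113) and H2-D1 in 5 of 5 by 0.52 ± 0.29 (adjusted p = 0.256, both edgeR). With the mouse as a block both passed, at adjusted p = 0.00714 and 0.0409. The 95% interval of the difference was −0.41 to 0.85 for B2m and −0.86 to 0.60 for H2-Q2, neither of which passed.

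**Figure D2:**
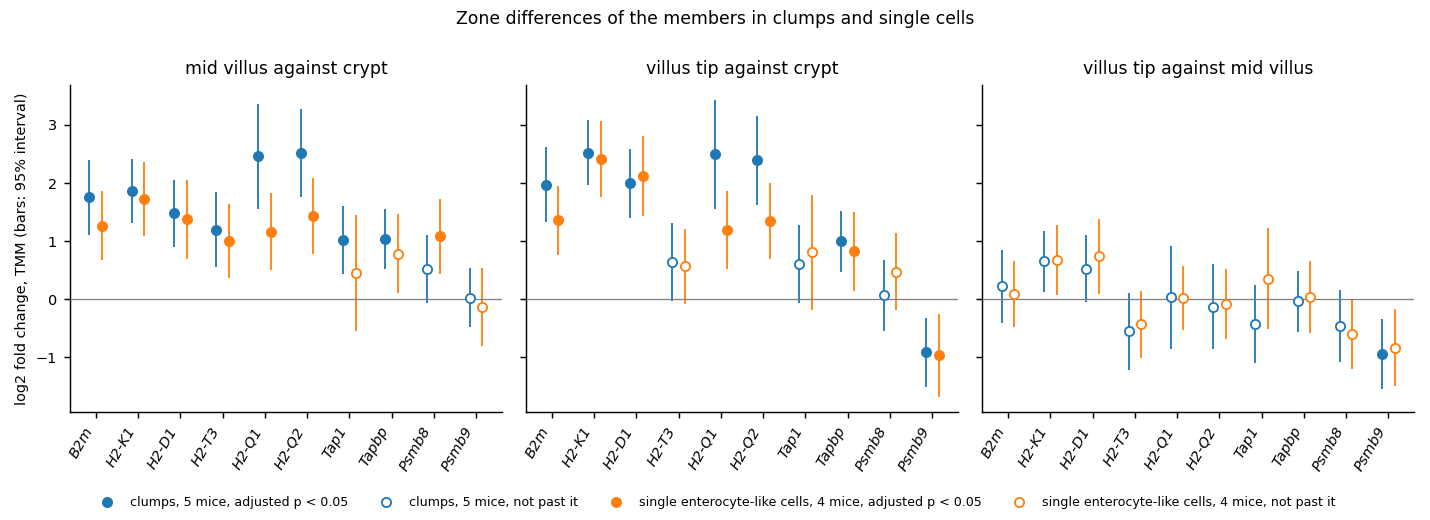
Log2 fold change (TMM scaling, 1 axis) of each member between zones in clumps of 5 mice and in single enterocyte-like cells of 4 mice; bars are 95% intervals and filled points have an adjusted p under 0.05. Against the crypt, 8 members in mid villus clumps and 7 in mid villus single cells are filled above 0, and Psmb9 is filled below 0 at the tip in both.

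Markers of other cells moved with the zones. The goblet list, with UMIs of all 10 genes in each zone, summed to 3089 to 6590.2 CPM in crypt and 6767 to 27862 at the tip. The Paneth list of 9 genes summed to 98.2 to 19701 in crypt and 173 to 1599 at the tip. Of the 16 immune genes analysed here, mainly of intraepithelial lymphocytes, 16 had UMIs in crypt, 12 in mid villus and 9 at the tip, and they summed to 1.83 to 239, 5.38 to 29.0 and 0 to 50.6 CPM. Cd3e and Trdc were at 0 in mid villus and tip. Among the 5721 clumps without a UMI of the immune list, 8 members were higher in mid villus, and 6 were higher and 1 lower at the tip, where all genes of that fit gave 13.8% higher and 25.5% lower in mid villus and 19.9% higher and 33.4% lower at the tip. The myeloid list (Lyz2, Cst3, Csf1r, Itgax and the MHC class II genes Cd74, H2-Aa and H2-Ab1, with C1qa not analysed here) summed to 476 to 1899 CPM in crypt, 875 to 4545.5 in mid villus and 907.5 to 5707 at the tip. Of these 7 genes 7, 6 and 5 had UMIs in these zones, with Itgax at 0 in mid villus and tip and Csf1r at 0 at the tip. The part of goblet, Paneth and myeloid RNA in the zone differences was not tested.

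The sort differed between the zones. Among pairs of cells alone 2 members, H2-Q1 and H2-Q2, were higher in mid villus than in crypt, and 4 were higher and 1 lower at the tip, where mouse 4 had 6 pairs and mouse 5 had 12. In that fit all genes gave 6.93% higher and 25.3% lower in mid villus and 13.4% higher and 38.4% lower at the tip. Among larger clumps alone 6 were higher in mid villus, and 5 were higher and 0 lower at the tip, with Psmb9 no longer lower, where all genes of that fit gave 12.4% higher and 16.7% lower in mid villus and 11.3% higher and 16.1% lower at the tip. Larger clumps came from mice 1, 4 and 5 alone, so that in their fit clump size and mouse cannot be told apart. H2-T3 changed sign between tip and crypt in pairs (−0.19). Among pairs of mice 1 to 3, which had at least 20 in each zone, 8 members were higher in mid villus, and 7 were higher and 1 lower at the tip, where all genes of that fit gave 13.1% higher and 19.4% lower in mid villus and 22.8% higher and 27.2% lower at the tip.

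Mouse 6, whose 248 zoned clumps entered none of these tests, had B2m at 657, 2811 and 1369.8 CPM in crypt, mid villus and tip. Its H2-K1 was at 274, 959 and 822 and its Psmb9 at 79.6, 74.7 and 0, where 0 UMIs allow up to 21.1 at the tip. In this mouse H2-K1 was lower at the tip than in mid villus, unlike in the other 5.

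Beside the members stands a list of 48 further class I pathway genes, of which 29 were tested in clumps. From crypt to tip 13 were higher and 6 lower, where 22.6% of all genes tested were higher and 30.5% lower, and the counts by role that follow stand beside the same shares. Among regulators of the pathway, that is interferon receptors, JAK and STAT genes, interferon regulatory factors and RFX subunits, 11 of 13 tested were higher and none was lower. Stat2, a signal transducer of interferon receptors, rose by 2.51 ± 0.46 (adjusted p = 8.35e-05 by edgeR), and H2-Bl, a class I heavy chain gene, by 3.32 ± 0.64 (adjusted p = 0.000263). Of 6 further peptide loading genes 3 were lower and none was higher. Among them the chaperone calnexin, Canx, went from 281 ± 50.6 CPM in crypt to 68.8 ± 32.4 at the tip (SD, n = 5), with a log2 fold change of −1.75 (adjusted p = 4.26e-05 by edgeR).

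Of the 3 constitutive catalytic proteasome subunits 2 were lower at the tip, Psmb7 with a log2 fold change of −1.65 ± 0.38 (adjusted p = 0.000828 by edgeR), and of 3 further immunoproteasome and activator genes 1 was under TMM. With DESeq2's size factors, total UMIs, UMIs of nuclear genes or the mouse as a block, 3 of those 3 genes and 3 of the constitutive subunits were lower. With DESeq2's size factors or with total UMIs the list gave 9 higher and 10 lower, with 7 of 13 regulators higher and 4 peptide loading genes lower, where all genes gave 17.3% higher and 36.7% lower and 15.2% higher and 35.9% lower in that order. With the mouse as a block it gave 16 higher, 2 of them peptide loading genes, and 10 lower, where all genes gave 28.1% higher and 33.9% lower. From crypt to mid villus 11 were higher and 2 lower (8 and 0 with total UMIs, 7 and 3 with DESeq2's size factors, where all genes gave 12.3% higher and 23.5% lower, and 11.2% higher and 29.6% lower), 7 of the higher ones regulators, where 16.5% of all genes were higher and 23.6% lower. H2-Bl rose by 2.25 ± 0.61 and H2-T23, a nonclassical heavy chain, by 2.06 ± 0.29. From mid villus to tip none was higher and 2 were lower, against 6.07% and 6.47% of all genes, Canx with a log2 fold change of −1.75 ± 0.31 and Psme1, a proteasome activator subunit, with one of −0.77 ± 0.26, and with the mouse as a block 8 were higher and 7 lower, against 13.1% higher and 14.9% lower among all genes.

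Over the 15 clump sums, the genes outside this list and the landmarks whose level followed the summed members most closely included Gm28046, Cyp3a11, Bst1 and Npc1l1. The Pearson correlation of log2(CPM + 5) was 0.974, 0.974, 0.956 and 0.955 in that order, among the 5 highest of 7337 genes. The sums share zones and mice, so this describes likeness only. Cyp3a11 is a cytochrome P450 and Bst1 an ADP-ribosyl cyclase. Npc1l1, the intestinal cholesterol transporter, was at 167 ± 47.3 CPM in crypt, 648 ± 111 in mid villus and 847 ± 159.9 at the tip (SD, n = 5). Against the sum of the other 9 members the correlation was 0.969 for B2m, 0.586 for H2-T3, 0.305 for Tap1 and −0.313 for Psmb9.

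The zones were also read in the table of single cells, where each well holds 1 sorted cell. Of 16850 wells 5199 passed the limits, and clustering without the class I genes and the mitochondrial genes gave 2562 enterocyte-like, 1594 immune-like, 248 enteroendocrine-like, 213 goblet-like and 185 tuft-like cells, each named from its markers. Another 397 cells stayed unnamed. The immune-like cells go against a gate that removes CD45, and 633 of the 635 of mouse 2 were on plates gated on CD24, where the methods name no CD45 gate for part of the sort, while the 692 of mouse 3 and 267 of mouse 4 were on other plates. Of the enterocyte-like cells 394 were assigned to crypt, 892 to mid villus and 1176 to the tip, with 7 crypt cells in mouse 1. The 10 most abundant genes took 43.4% to 52.1% of the UMIs of crypt sums and 63.1% to 76.1% of tip sums, and the TMM factors were 1.17 to 3.08 and 0.476 to 0.796. Calls are therefore given under TMM and with total UMIs as library sizes, the latter added after the data were seen.

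In mid villus single cells 7 of 10 members were higher than in crypt cells and none was lower, against 16.4% higher and 18.9% lower among 4089 genes, and the median of the members was 1.12 where that of all genes was 0.14. With total UMIs 4 were higher and none lower, against 7.87% higher and 22.4% lower, with medians of 0.66 and −0.22. B2m was at 904, 649, 746 and 753 CPM in crypt cells of mice 1 to 4, at 1181, 1280.5, 1113 and 1300.3 in mid villus and at 669.6, 985, 999 and 818 at the tip. Mid villus lay above crypt without overlap (1.27 ± 0.30, adjusted p = 0.00131 by edgeR). The tip overlapped the crypt, and was higher under TMM (1.36 ± 0.30, adjusted p = 0.000338) but not with total UMIs (0.21, adjusted p = 0.508).

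From crypt to tip 6 members were higher and Psmb9 was lower in single cells, against 32.1% higher and 29.2% lower. With total UMIs 2 were higher, H2-K1 and H2-D1, and Psmb9 was lower, against 11.5% higher and 44.7% lower among all genes, while the medians of members and of all genes went from 1.01 and 0.18 to −0.02 and −0.80. H2-K1 was at 362, 256, 261 and 349 CPM in crypt, 838, 564, 595 and 694 in mid villus and 698, 683, 766 and 744 at the tip. Neither villus zone overlapped the crypt. The tip against crypt change was 2.41 ± 0.33 for H2-K1 under TMM (adjusted p = 5.39e-07 by edgeR) and 1.28 with total UMIs, and for H2-D1 2.12 ± 0.35 and 1.03.

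Psmb9 was at 60.3, 59.5, 59.95 and 46.0 CPM in crypt cells, 38.1, 27.9, 47.2 and 42.7 in mid villus and 13.5, 11.1, 14.2 and 16.1 at the tip. All 4 tip values lay below all others. Its tip against crypt change was −0.96 ± 0.37 under TMM (adjusted p = 0.0243 by edgeR) and −1.99 with total UMIs (adjusted p = 6.23e-05). Under TMM it no longer passed without mouse 2 (−0.75), mouse 3 (−0.80) or mouse 4 (−1.08), nor with DESeq2's size factors (−0.80, adjusted p = 0.0509).

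**Figure D3:**
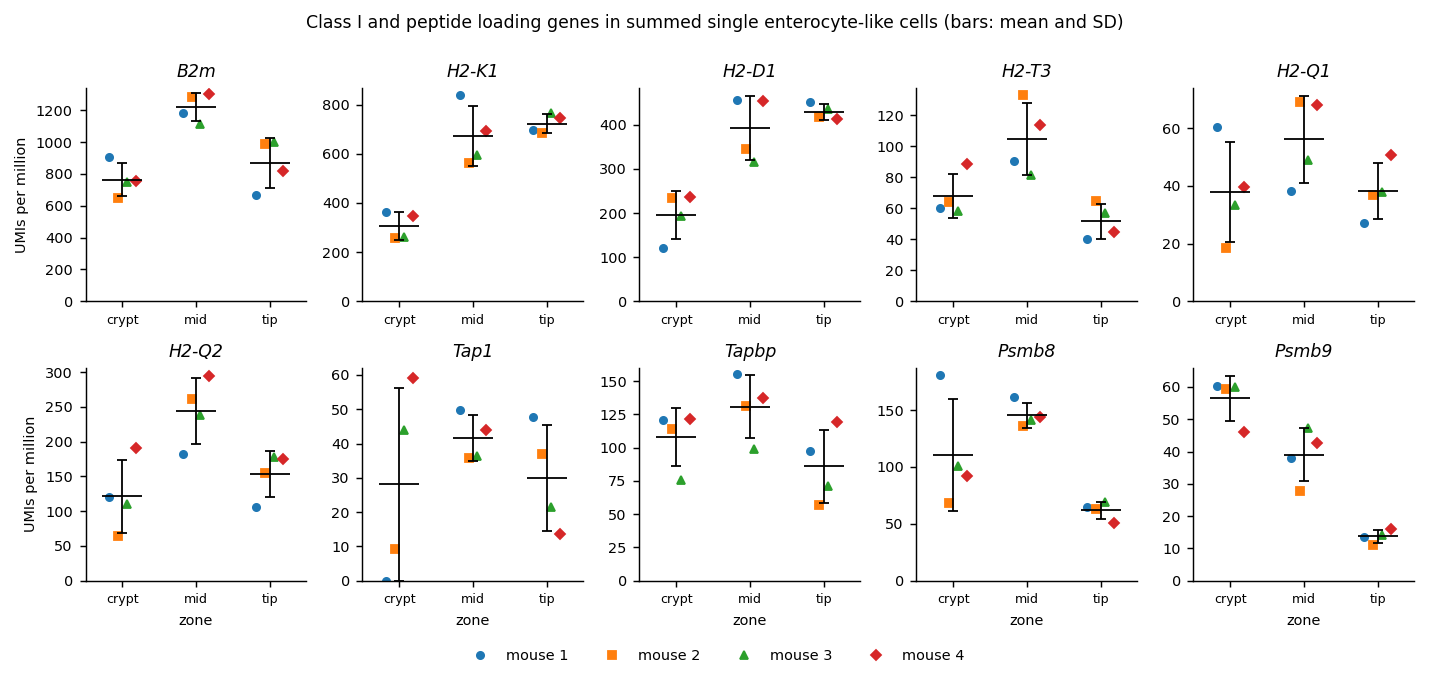
Level of each member in CPM (UMIs per 1000000) (vertical axes from 0, 1 scale per gene) in summed single enterocyte-like cells of crypt, mid villus and villus tip; each point is 1 of 4 mice, bars are the mean and SD. H2-K1 lies higher in both villus zones than in crypt in every mouse, and Psmb9 lies at 11.1 to 16.1 at the tip, below all crypt and mid villus values.

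H2-Q2 was at 64.0 to 191 CPM in crypt cells, 182 to 295 in mid villus and 106 to 178 at the tip. It was higher under TMM in mid villus (1.44 ± 0.33) and at the tip (1.35 ± 0.33), and with total UMIs in mid villus alone. H2-T3 was at 58.2 to 88.8 in crypt, 81.5 to 133 in mid villus and 40.03 to 64.6 at the tip, and was higher in mid villus than at the tip in all 4 mice. Its mid villus against crypt change was 1.00 ± 0.32 (adjusted p = 0.0166 by edgeR), and no longer passed without mouse 2 (0.91), mouse 3 (1.07) or mouse 4 (1.17) or with total UMIs (0.59). Without mouse 2 or mouse 4 the members higher in mid villus numbered 4 in each case, a count not set against the share of all genes in those fits.

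Tapbp was at 75.8 to 122 CPM in crypt cells and 57.2 to 119 at the tip, lower at the tip in 4 of 4 mice, yet it was higher under TMM (0.82 ± 0.35, adjusted p = 0.0418 by edgeR) and changed sign with total UMIs (−0.25). The TMM call was lost without mouse 1 (0.59), mouse 3 (0.79) or mouse 4 (0.83). In mid villus against crypt cells Tapbp differed by 0.79 ± 0.35 (adjusted p = 0.0801 by edgeR), and passed with the mouse as a block (0.62, adjusted p = 0.0316). Psmb8 was at 68.6 to 181 in crypt, 136 to 161 in mid villus and 50.8 to 68.8 at the tip. It was higher in mid villus than in crypt cells by 1.08 ± 0.33 under TMM (adjusted p = 0.0108 by edgeR), a call that was lost with total UMIs (0.63, adjusted p = 0.154) and with UMIs of nuclear genes (0.74, adjusted p = 0.0812). It was also lost without mouse 2 (1.08, adjusted p = 0.0941) or mouse 4 (1.13, adjusted p = 0.0611).

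Between tip and mid villus single cells none of the 10 members passed, against 14.2% higher and 14.2% lower, and 2 were higher and 1 lower at an unadjusted p under 0.05 by edgeR. The differences were 0.68 ± 0.31 for H2-K1 (adjusted p = 0.0942), 0.74 ± 0.33 for H2-D1 (adjusted p = 0.0887) and −0.83 ± 0.34 for Psmb9 (adjusted p = 0.0646, all edgeR). With the mouse as a block, H2-K1 and H2-D1 were higher and Psmb8 and Psmb9 lower past the threshold, against 20% higher and 18.3% lower among all genes, and H2-K1 and H2-D1 passed without mouse 1 as well. With total UMIs H2-T3, Psmb8 and Psmb9 were lower and none was higher, against 4.21% higher and 34.2% lower. Of the 17 immune genes analysed here 16, 14 and 16 had UMIs in crypt, mid villus and tip cells, summing to 0 to 3526, 8.79 to 167 and 8.32 to 229 CPM, and their part in the crypt values was not tested. The enteroendocrine list, with 14 of 15 genes analysed here, summed to 6.58 to 7112 CPM in crypt, 37.3 to 121 in mid villus and 34.7 to 148 in tip cells, with UMIs of 12, 12 and 11 genes, and Gcg and Pyy at 0 in crypt and Tph1 and Scg5 at 0 in the other zones. The tuft list summed to 26.3 to 422, 14.7 to 39.9 and 19.0 to 42.4, with UMIs of 8, 11 and 10 of the 11 genes analysed here and Rgs13 at 0 in crypt and tip cells. The part of both lists in the differences from crypt was not tested.

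Across cell types the heavy chain H2-Q2 was lower in goblet-like, tuft-like and immune-like than in enterocyte-like cells under each of 4 library scalings (TMM, DESeq2's size factors, total UMIs and UMIs of nuclear genes). H2-T3 had nearly all its UMIs in enterocyte-like cells. It was at 47.1, 96.4, 67.6 and 80.6 CPM in enterocyte-like cells of mice 1 to 4. It had 4 UMIs among 496650 in goblet-like cells, 1 among 410526 in tuft-like cells, 9 among 1538752 in immune-like cells and none among 503881 in enteroendocrine-like cells. On pooled UMIs this was 8.74-fold lower in goblet-like cells (95% exact counting interval 3.40 to 32.2), 28.9-fold in tuft-like cells (5.17 to 1144), 12.0-fold in immune-like cells (6.30 to 26.5), and at least 11.8-fold lower in enteroendocrine-like cells, computed against 3 counts over that group. These intervals cover counting error only. H2-T3 passed the filter on low counts through the enterocyte-like sums alone, with 0 of 14 other sums over its limit of 45.9 CPM, so its calls were fixed by the filter and its levels are given as a description, with no test.

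H2-Q2 was at 117, 192, 182 and 223 CPM in enterocyte-like cells. It was at 29.3, 29.7, 64.9 and 39.4 in goblet-like cells, 18.7, 38.2 and 61.6 in tuft-like cells of mice 1 to 3 and 5.74, 18.1 and 25.5 in immune-like cells of mice 2 to 4. None of these reached an enterocyte-like value, whereas enteroendocrine-like cells, at 75.4, 113, 137 and 88.5, overlapped them. Goblet-like cells of mouse 4, tuft-like cells of mouse 3 and enteroendocrine-like cells of mouse 4 had 1 UMI each. In these sums 3 counts are 118, 185 and 266 CPM, above the lowest enterocyte-like value, so overlap is not settled there. The difference of H2-Q2 was −2.91 ± 0.54 in goblet-like (adjusted p = 4.87e-05), −3.53 ± 0.67 in tuft-like (adjusted p = 4.64e-05) and −4.92 ± 0.63 in immune-like cells (adjusted p = 1.05e-08, all edgeR with TMM). H2-Q1 did not pass the filter on low counts in this fit. It was at 28.5 to 55.3 CPM in enterocyte-like cells and had 8, 2, 3 and 15 UMIs in all goblet-like, tuft-like, enteroendocrine-like and immune-like cells.

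**Figure D4:**
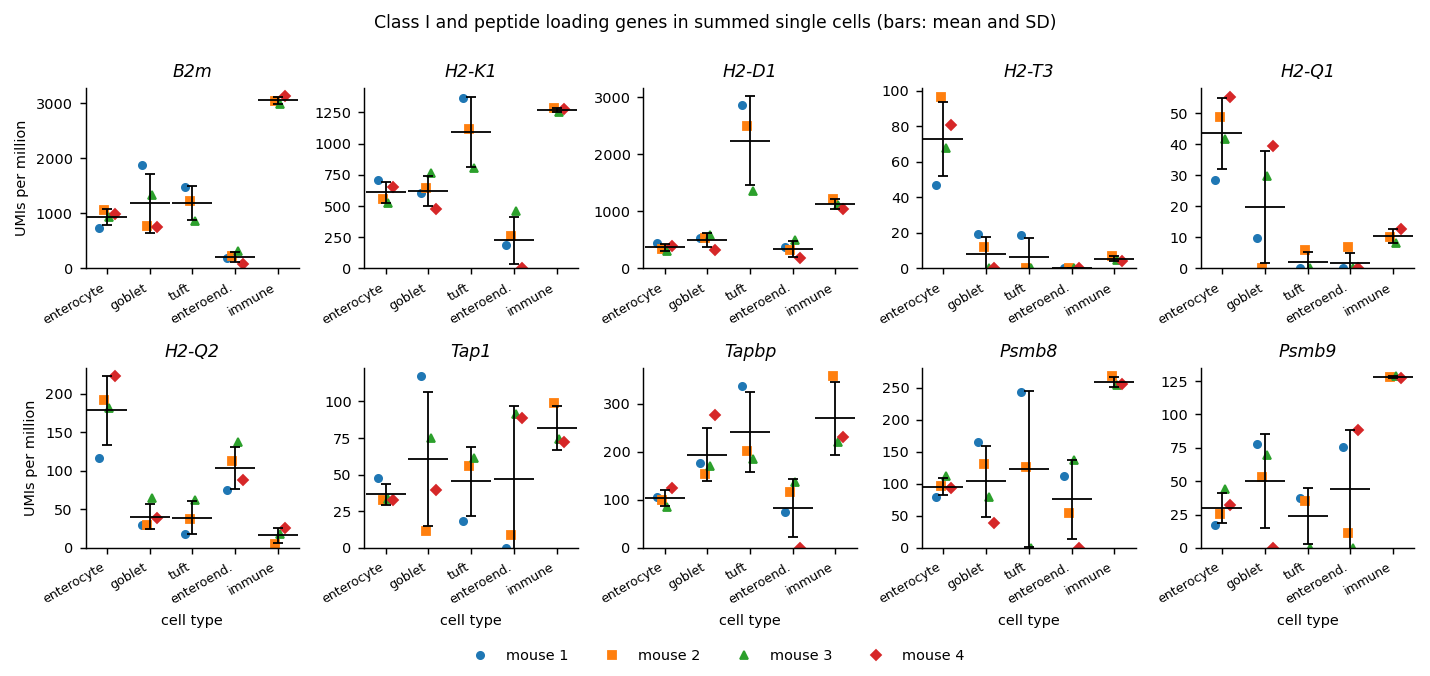
Level of each member in CPM (UMIs per 1000000) (vertical axes from 0, 1 scale per gene) in summed single cells of 5 types; each point is a mouse with at least 5 cells of the type, bars are the mean and SD. H2-T3 is highest in enterocyte-like cells, H2-D1 in tuft-like cells at 1356 to 2857, and B2m lies at 88.5 to 319.8 in enteroendocrine-like cells.

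In goblet-like cells 2 of 9 tested members were lower and none was higher, against 6.53% higher and 14.9% lower among 4439 genes. Tuft-like cells had 2 lower and none higher, against 9.96% and 13.8%, and immune-like cells 2 lower and none higher, against 29.8% and 28.3%. In each case the lower members were H2-Q2 and H2-T3, and the call of H2-T3 was fixed by the filter on low counts and is no test. Among the 8 members that reach the filter without the enterocyte-like sums, H2-T3 not being one of them, 1 was lower in each of these 3 types, H2-Q2, against 11.2%, 9.97% and 24.5% of the 4213 such genes. In these types 0 members were higher at an unadjusted p under 0.05 by edgeR and 0 by DESeq2's Wald test. Without mouse 2 each of the 3 types had 1 lower member, H2-Q2, while H2-T3 no longer passed the filter on low counts. Fewer genes were called in all in that fit, and these counts are not set against the share of all genes lower in it. With H2-T3, whose call was fixed by the filter, enteroendocrine-like cells had 8 of 9 lower and none higher, against 10.3% higher and 22.4% lower. Of the 8 members that reach the filter without the enterocyte-like sums, 7 were lower and none higher. Of the 4213 genes 10.9% were higher and 18.5% lower. Psmb9 reached the filter through the other types, with none of its enterocyte-like sums over the limit. The median difference of these 8 members was −0.50, −0.83, −0.12 and −2.21 in goblet-like, tuft-like, immune-like and enteroendocrine-like cells, where that of the 4213 genes was −0.32, −0.14, 0.20 and −0.23. With total UMIs the median of these genes became 0.43, 0.97, 1.5 and 1.19 and that of the members 0.39, 0.46, 1.41 and −0.62.

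Enteroendocrine-like cells had little B2m. It was at 188, 234, 319.8 and 88.5 CPM, against 739, 1067, 943 and 988 in enterocyte-like cells of the same mice, with no overlap. B2m was lower under each of the 4 scalings, with a difference of −3.84 ± 0.65 under TMM (adjusted p = 8.02e-06 by edgeR), and with total UMIs it was −2.10 (adjusted p = 0.00410). H2-K1 was at 188, 263, 457 and 0 CPM in enteroendocrine-like and 708, 553, 523 and 651 in enterocyte-like cells, where the 0 UMIs of mouse 4 allow up to 266. Its difference was −3.24 ± 0.65 under TMM (adjusted p = 0.000120 by edgeR) and −1.32 with total UMIs (adjusted p = 0.0764). The lower calls of H2-D1, H2-Q2, Tap1, Tapbp and Psmb8 were lost with total UMIs too, where of the 8 members 1, B2m, passed, against 4.53% of the 4213 genes. Mouse 2 gave 218 of these cells and mice 1, 3 and 4 gave 11, 11 and 8. Without mouse 2 the lower members were 3, B2m, H2-K1 and H2-Q2, with H2-T3 under the filter. Fewer genes were called in all in that fit, and the count is not set against the share of all genes lower in it. Psmb9 differed by −1.93 ± 0.79 and did not pass (adjusted p = 0.0546 by edgeR), but did with the mouse as a block (−2.02, adjusted p = 0.00570). The call of Tapbp was lost without any of the 4 mice (adjusted p from 0.0696 to 0.0982, edgeR).

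Tuft-like cells had the highest level of H2-D1 among the types. It was at 2857, 2489 and 1356 CPM in mice 1 to 3, against 445, 348, 298 and 396 in enterocyte-like cells of mice 1 to 4, with no overlap. The difference was 1.12 ± 0.60 under TMM (adjusted p = 0.202 by edgeR), 1.30 with DESeq2's size factors (adjusted p = 0.124), 2.60 with total UMIs (adjusted p = 0.000550) and 2.34 with UMIs of nuclear genes (adjusted p = 0.00117). H2-K1 was at 1363, 1121 and 801 in tuft-like cells, above its enterocyte-like values, but its difference was −0.63 under TMM and 0.86 with total UMIs, and neither passed. The immune list summed to 299 to 957 CPM in tuft-like, 10.4 to 561 in enterocyte-like and 45630 to 58408 in immune-like cells, with Trgc1 not analysed here, and its part in the level of H2-D1 was not tested. Mitochondrial genes took 30.3% to 33.1% of the UMIs in enterocyte-like sums and 9.15% to 20.2% in those of the other types.

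Immune-like cells had B2m at 3048, 2986 and 3127 CPM in mice 2 to 4, above all enterocyte-like values. Psmb9 was at 128, 129 and 128, against 17.3 to 44.0 in enterocyte-like cells. Under TMM neither difference passed (0.23 ± 0.60 and 0.77 ± 0.52, adjusted p = 0.755 and 0.201 by edgeR), and with the mouse as a block Psmb9 was higher by 0.98 (adjusted p = 0.0137). With total UMIs 6 of the 8 members were higher, against 57.5% of the 4213 genes, B2m by 1.71, H2-D1 by 1.60, and Tap1, Tapbp, Psmb8 and Psmb9, and with UMIs of nuclear genes 3 were, against 49.5%. H2-K1, H2-D1, Tap1, Tapbp and Psmb8 had a negative difference under TMM and a positive one with total UMIs. The immune-like cells of mouse 2 were not of 1 kind. At Leiden resolution 0.5, 266 of its 635 immune-like cells lay in an unnamed cluster led by defensin genes, against 2 in each of mice 3 and 4. The Paneth list summed to 203 to 6581 CPM in immune-like sums and 54.1 to 472 in enterocyte-like ones. With the types of that resolution the immune-like difference of B2m was −0.00495 ± 0.57 (adjusted p = 0.999) and that of Psmb9 0.61 ± 0.42 (adjusted p = 0.203, both edgeR).

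**Figure D5:**
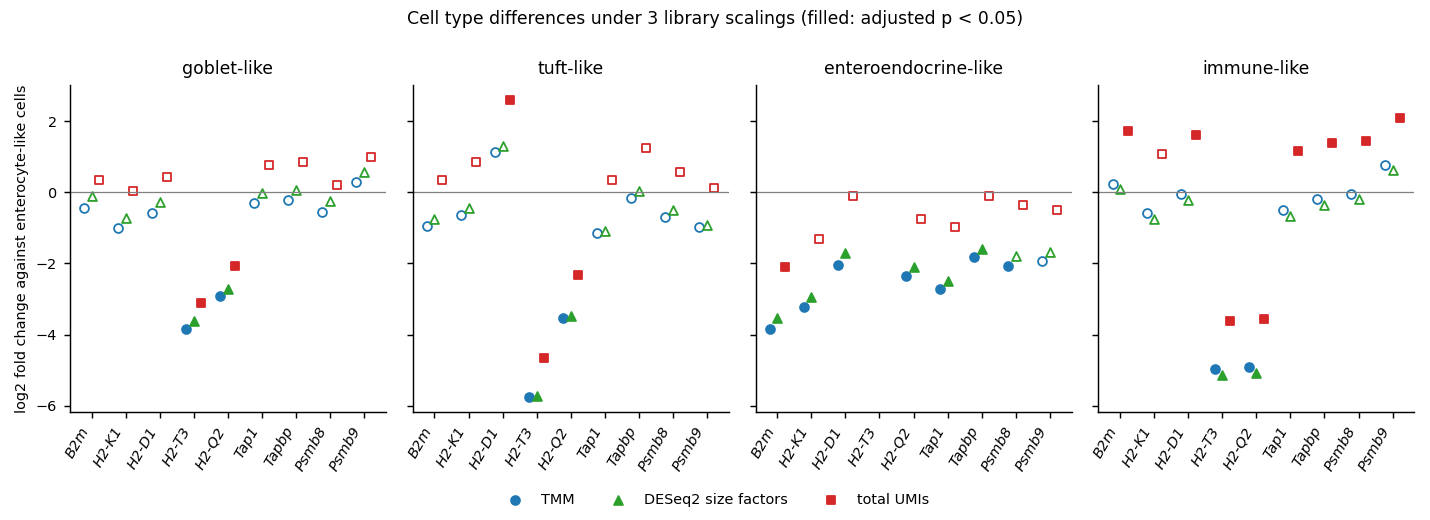
Log2 fold change of the tested members in 4 cell types against enterocyte-like cells (1 axis), under 3 library scalings; filled points have an adjusted p under 0.05. H2-Q2 is filled below 0 in goblet-like, tuft-like and immune-like cells under each of these 3 scalings, as is H2-T3, whose calls were fixed by the filter on low counts, whereas most members in immune-like cells lie near 0 under TMM and above it with total UMIs; H2-T3 in enteroendocrine-like cells, with no UMI, is left out.

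The gate could be held constant in mouse 2 alone, where plates gated on CD24 held 42 enterocyte-like, 102 tuft-like, 187 enteroendocrine-like and 633 immune-like cells. In these plates H2-D1 was at 471, 2466, 309 and 1228 CPM in that order and B2m at 1369, 1182, 242 and 3067. H2-T3 had 1 UMI among 70115 in enterocyte-like cells, so that its difference between types could not be read within this gate. On the other plates of mouse 2, H2-D1 was at 342 in enterocyte-like and 2539 in tuft-like cells, B2m at 1052.5 in enterocyte-like and 186 in enteroendocrine-like cells, and H2-T3 at 100.3 in enterocyte-like and 0 in tuft-like cells. H2-D1 was thus highest in tuft-like cells and B2m lowest in enteroendocrine-like cells in both kinds of plate, with 1 mouse and no test.

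Goblet-like cells were placed along the axis by goblet landmark genes of the study and split at the median into 103 crypt-ward and 103 tip-ward cells. Of the members 4 passed the filter on low counts and none of them the test, against 0.958% higher and 8.95% lower among 313 genes, and 0 had an unadjusted p under 0.05 by edgeR. B2m was at 1292, 673, 1089 and 343 CPM crypt-ward and at 2167, 866, 2049.8 and 1641 tip-ward in mice 1 to 4, a higher level tip-ward in 4 of 4 mice (0.88 ± 0.45, adjusted p = 0.201 by edgeR). H2-K1, H2-D1 and Tapbp also had a higher level tip-ward in 4 of 4 mice, with differences of 0.77 ± 0.38, 0.73 ± 0.39 and 0.61 ± 0.35 (adjusted p = 0.198, 0.217 and 0.253 by edgeR). Psmb8, which did not reach the filter on low counts, was at 114, 89.7, 60.1 and 0 CPM crypt-ward and at 192, 165, 138 and 126 tip-ward, without overlap and with no test. Marker lists moved with this split. The enterocyte list summed to 1831 to 4066 CPM crypt-ward and 3705 to 6057.5 tip-ward, with UMIs of all 14 genes, and the goblet list to 62868 to 233720 and 229950 to 297320. The list of stem and dividing cells summed to 114 to 400.4 and 0 to 51.6, with UMIs of 10 and 5 of its genes and Olfm4 and Mki67 at 0 tip-ward. Their part in these differences was not tested.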

How the data were processed

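Single-cell and clump libraries were made with MARS-seq 2.0, for which the authors deposited UMI counts by gene and well, unnormalized whole numbers, in 1 table of clumps and 1 of single cells (GRCm38 is the build in the submitters' processing notes). All plates share the same 384 well barcodes, and wells were told apart by plate. The study left 4 wells of each plate empty, but the labels do not mark them. For plate background they were taken as the 4 barcodes with the lowest median UMIs in the clump table. Their medians were 55 to 123.5 UMIs, and that of the next barcode was 128. The members and all gene lists were chosen with earlier results of these data known. Named genes were the 10 members, up to 2 of the largest rises and falls among the pathway list, and the 5 genes of the most similar pattern, 1 of which is not reported here.

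A clump was kept if it had over 500 UMIs, 200 or more genes and a mitochondrial share of 30% or less, and took the zone whose landmark list correlated best with its landmark values. Single cells within limits on UMIs (200 to 7000), genes (150 to 1500) and mitochondrial share (40%) were clustered (scanpy 1.11.5, Leiden resolution 0.1). The members, the other class I genes, mitochondrial genes and some abundant RNAs such as Malat1 were left out of the clustering. A cluster was named where 1 marker list held the most, and at least 3, of its 50 leading genes. It stayed unnamed if another list held more of the foremost of these genes. The same held if its cells had few UMIs and none of the foremost genes was on the list. Types rebuilt in this way can differ from the study's. No doublet caller was run. UMIs were summed per mouse and zone or type (at least 5 wells), since wells are not replicates. Sums were tested in edgeR 4.0.16 (R 4.3.3; TMM, filterByExpr, robust quasi-likelihood test, Benjamini-Hochberg over all genes, threshold 0.05), with DESeq2 1.42.0 as an alternative. H2-Q1 did not pass the filter in the fit of cell types. Counting floors are 3 counts, and intervals are at 95%. Those of pooled UMIs cover counting error only, while those of log2 fold changes rest on the SE of the fit.

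Sums of the same number come from the mouse that the labels number, so the numbers were taken to pair them, although single-cell mouse 2 carries 2 labelled ages and need not be 1 animal. Their deviations from the group means correlated at 0.189 to 0.594 over 15 pairs of clump sums, 0.0474 to 0.512 over 12 of enterocyte-like zones, 0.00560 to 0.562 over 32 of cell types and 0.117 to 0.288 over 4 of goblet-like cells tip-ward and crypt-ward. The contrasts of single cells with the crypt, the scalings by total and nuclear UMIs, the subsets by sort, mouse 6 and the fits without the 4-month plates were added after the data were seen.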

Additional observations from a re-analysis of the deposited data

Results flagged for a closer look

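In 6 of 110 groups of 4 or 5 mice, 1 mouse stood apart from the others by Dixon's 95% limit, which chance passes in about 1 in 20 groups. Mouse 3 had H2-D1 at 954 CPM in mid villus clumps, where the other 4 mice had 569 to 667. Tap1 was at 47.6 in enterocyte-like cells of mouse 1 and at 32.6 to 33.6 in the other 3. In crypt enterocyte-like cells, Tapbp was at 75.8 in mouse 3 against 114 to 122, and Psmb9 was at 46.0 in mouse 4 against 59.5 to 60.3, on 14 UMIs. H2-Q1 was at 6.75 in enteroendocrine-like cells of mouse 2, on 3 UMIs, and H2-T3 at 27.4 in tip-ward goblet-like cells of mouse 1, on 2 UMIs, with the other mice at 0.

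In CPM, Tapbp went opposite ways between crypt and tip in the 2 tables, while under TMM it was called higher at the tip in both. Its level was higher at the tip in 5 of 5 mice in clumps (log2 fold change 1.00 ± 0.27, adjusted p = 0.00302 by edgeR), and lower at the tip in 4 of 4 mice in single enterocyte-like cells, where TMM scaling gave 0.82 ± 0.35 and total UMIs −0.25. The difference between the tables was not tested.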

How the results depend on the processing

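Of 846 recomputed differences of members called in the main test or with the mouse as a block, 729 kept their direction and side of the threshold, 71 were weaker, 42 stronger and 4 reversed, and the cause of each change was not tested. Among these, reversed were H2-T3 between tip and crypt in pairs (−0.19), Psmb9 between tip and crypt in larger clumps (0.0389), and Tapbp between tip and crypt single cells with total (−0.25) or nuclear UMIs (−0.11). Of all 1495 recomputed differences of tested members, called or not, 135 changed sign, 29 of them with total and 25 with nuclear UMIs. H2-K1 in tuft-like cells, for example, went from −0.63 to 0.86 with total UMIs, and Psmb8 between tip and crypt single cells from 0.48 to −0.60.

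In clumps, the genes called between tip and crypt went from 3948 to 2449 in pairs, 1402 thinned to 500 UMIs and 1175 in larger clumps, with 0 and 0 members lower in the last 2 against 1 (30.3% and 16.1% of all genes against 30.5%). Between mid villus and crypt 2981 genes became 1524, 1103 and 1243, and 8 higher members became 2 in pairs. Between tip and mid villus 934 genes became 591, 240 and 28. There, 0 higher members became 1 by DESeq2's Wald test, 1 with zones by the highest mean landmark value and 1 with plate background subtracted, and 1 lower member became 0 with no filter, 0 thinned, 0 with background subtracted and 0 in larger clumps. In the order of these settings, 7.24%, 8.74% and 7.82% of all genes were higher and 1.66%, 3.98%, 6.51% and 0.140% lower.

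With the mouse as a block, the pairing of sums by mouse gave 2 higher members and 2081 genes between tip and mid villus clumps, 2 higher and 2 lower members between tip and mid villus single cells (0 and 0 without it), 1 higher member in immune-like cells and 71 genes between goblet-like cells tip-ward and crypt-ward (31 without it). Psmb9 in enteroendocrine-like cells, H2-T3 and Psmb8 in clumps and Tapbp in mid villus cells passed as well, and the block changed no other call of a member. Without the plates of single-cell mouse 2 labelled 4 months (91 of its 1793 cells), 0 of 70 differences of members changed sign and no call of a member changed, and with the mouse as a block the same calls of members were made as with those plates (1 higher in immune-like cells, 2 higher and 2 lower between tip and mid villus, and 72 genes between goblet-like cells tip-ward and crypt-ward).

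In single cells, no filter on low counts gave 1607 called genes in goblet-like (from 951), 2138 in tuft-like (from 1053), 3242 in enteroendocrine-like (from 1454) and 6278 in immune-like cells (from 2581), 2298 for mid villus against crypt (from 1444), 4181 for tip against crypt (from 2505, with 0 members lower) and 12 for goblet-like cells tip-ward and crypt-ward. Leiden resolution 0.5 gave 1741 in goblet-like and 2228 in enteroendocrine-like cells. Total UMIs gave 1 higher member in tuft-like (from 0), 2 lower in enteroendocrine-like (from 8) and 6 higher in immune-like cells (from 0), 4 higher for mid villus against crypt (from 7), 2 for tip against crypt (from 6), 3 lower for tip against mid villus (from 0) and 15 genes for goblet-like cells tip-ward and crypt-ward. UMIs of nuclear genes gave 1, 3, 3, 4, 2, 3 and 20 in that order. Shares of all genes moved with the scaling too. For the same 6 counts of members, the share of all genes called in that direction was 25.9%, 7.05%, 54.6%, 7.87%, 11.5% and 34.2% with total UMIs, 19.9%, 8.81%, 47.0%, 9.59%, 13.5% and 33.4% with nuclear UMIs and 9.96%, 22.4%, 29.8%, 16.4%, 32.1% and 14.2% under TMM. The counts of lower members in enteroendocrine-like cells include H2-T3, whose calls were fixed by the filter. Without it they were 1 with total UMIs, 2 with nuclear UMIs and 7 under TMM. Of the 4213 genes that reach the filter without the enterocyte-like sums, 4.53%, 5.98% and 18.5% were lower in that order. DESeq2's size factors gave 2 higher members for tip against mid villus (H2-K1 and H2-D1), 0 lower for tip against crypt (Psmb9 lost, adjusted p = 0.0509) and 15 genes for goblet-like cells tip-ward and crypt-ward. With them Psmb8 in enteroendocrine-like cells was lost (adjusted p = 0.0578), and Tapbp in mid villus against crypt (adjusted p = 0.0445) and H2-T3 in tip against crypt cells (adjusted p = 0.0475, all edgeR) were gained.

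Leaving out each mouse in turn gave 0 to 1 lower members and 2521 to 4090 genes for tip against crypt clumps, 1741 to 3240 genes for mid villus against crypt, and 0 to 1 lower members and 371 to 1093 genes for tip against mid villus, with the fewest genes without mouse 3 and, for tip against mid villus, about as few without mouse 1 (373) or mouse 2 (383). It gave 1 to 3 lower members and 385 to 1190 genes in goblet-like, 1 to 3 and 321 to 1420 in tuft-like, 3 to 9 and 446 to 1975 in enteroendocrine-like and 1 to 3 and 1153 to 3765 in immune-like cells, the fewest genes without mouse 2. For single enterocyte-like cells it gave 0 to 2 higher members and 452 to 1300 genes for tip against mid villus (1161 with all mice, 560 without mouse 3 and 554 without mouse 4), 4 to 7 higher for mid villus against crypt and 0 to 1 lower for tip against crypt, and for goblet-like cells tip-ward and crypt-ward 0 to 70 genes, 0 without mouse 1, 2 or 3. Counts of members against the crypt in single cells are not set here against the share of all genes in each fit. Counts of lower members in the cell types include H2-T3 where it passed the filter on low counts, which fixed its calls. Tip sums of mice 4 and 5 hold the fewest UMIs of the clump sums, and levels of a few UMIs, such as H2-T3 outside enterocyte-like cells, limit what can be read.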

Other observations

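The 397 single cells that stayed unnamed, 43, 116, 163 and 75 in mice 1 to 4, were left out of the comparisons. In them B2m was at 1671, 1668, 2106.5 and 2113 CPM, H2-K1 at 628, 638, 467 and 596 and H2-D1 at 495, 642, 324 and 523. H2-T3 had 4 UMIs in all, and Psmb9 was at 26.7, 170.2, 60.6 and 73.6.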
